A study of Mus musculus with 12 samples.

Results

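The imprinted genes described here are 33 genes, H19 and Mest among them, chosen by name from the 47729 genes of the deposited tables. Each name matched 1 row. The libraries were made from total RNA of 4 fat depots of male wild-type C57BL/6J mice, 6 to 10 weeks of age, that ate a low-fat diet. The depots were brown adipose tissue (BAT) and epididymal (EWAT), inguinal (IWAT) and retroperitoneal (RWAT) white adipose tissue, with 3 libraries each. Surgical denervation is part of every label, so nerve loss is shared by all groups and its effect cannot be measured. Whether the libraries of a depot represent different mice is not stated, and p-values therefore describe variation among these libraries, possibly technical.

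Imprinted genes are expressed mainly from the copy inherited from a single parent, while the other copy is silenced by marks set in the germ line. Many lie in clusters that share a control region, and many act on fetal growth, either promoting it (Igf2, Mest, Dlk1) or restraining it (H19, Igf2r, Cdkn1c, Grb10). In white fat, Mest is known as a gene that rises when the tissue expands, and the protein of Dlk1, also called preadipocyte factor, holds back adipocyte differentiation. The parental copy behind a read cannot be told in an inbred strain, so all values are the sum of both copies.

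The H19, Igf2 and Mest loci also hold microRNAs, whose mature sequences are shown because these 3 genes are central to the values that follow. The sequences are RefSeq's, on GRCm38.p6, with the seed (bases 2 to 8) in capitals, and the data measure the host gene, not the microRNA.
H19, miR-675-5p: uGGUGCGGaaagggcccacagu
H19, miR-675-3p: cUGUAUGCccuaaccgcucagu
Igf2, miR-483-5p: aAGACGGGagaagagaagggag
Igf2, miR-483-3p: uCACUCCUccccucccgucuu
Mest, miR-335-5p: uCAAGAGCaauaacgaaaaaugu
Mest, miR-335-3p: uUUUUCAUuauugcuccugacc
No pair among them shares a seed. Of the 33 genes, 8 hold 45 mature microRNAs within their annotated bounds, and 26 of these lie in Mirg.

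Library totals ran from 15699912 to 25633413 estimated counts. Levels are counts scaled to library size with the TMM method (CPM), and levels of different genes are compared only in the authors' TPM, which accounts for transcript length. The summed level of 11 brown adipocyte markers was 5326, 253 and 1289 CPM in BAT replicates 1, 2 and 3 and ranged over 8.13 to 469.6 CPM in white fat, with IWAT replicates 1 and 2 above BAT replicate 2. The 18 skeletal muscle markers summed to 23369, 16457 and 2778 CPM in the BAT libraries and 19209 CPM in RWAT replicate 3, with 67.2 to 168 CPM elsewhere. The muscle gene Acta1, skeletal actin, held 2621, 1607 and 263 CPM in BAT and 1766 CPM in RWAT replicate 3, and at most 12.6 CPM in any other library. In such bulk samples, fewer cells of a type and less RNA per cell cannot be told apart.

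Of the 33 imprinted genes, 31 passed the filter on low counts and were tested. Phlda2, which restrains placental growth, had 0 counts in all 12 libraries, where 3 counts would be 0.128 to 0.236 CPM, depending on the library. Magel2, of the Prader-Willi region, held 9 counts in all. Per length, Gnas was the most abundant, with a median of 556 TPM over the libraries and a range of 453 to 784 TPM. The medians of the lncRNA Rian, of Nnat and of Grb10 were 117, 94.8 and 62.1 TPM, and Nnat exceeded Rian in 6 of 12 libraries. H19 and Mest had medians of 28.02 and 25.03 TPM and wide ranges, 2.98 to 445 TPM for H19 and 1.26 to 109 TPM for Mest. Igf2 had a median of 2.17 TPM and reached 39.9 TPM in RWAT replicate 3.

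In CPM, RWAT replicate 3 was the highest of all 12 libraries for 13 of the 31 genes, and BAT replicate 1 the lowest for 9. The same counts were not made over all genes tested, so they cannot be read as a trait of these genes. They also depend on the scale. In the authors' TPM, for example, BAT replicate 1 was the lowest library for Copg2 and Impact, which it was not in CPM.

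**Figure D1:**
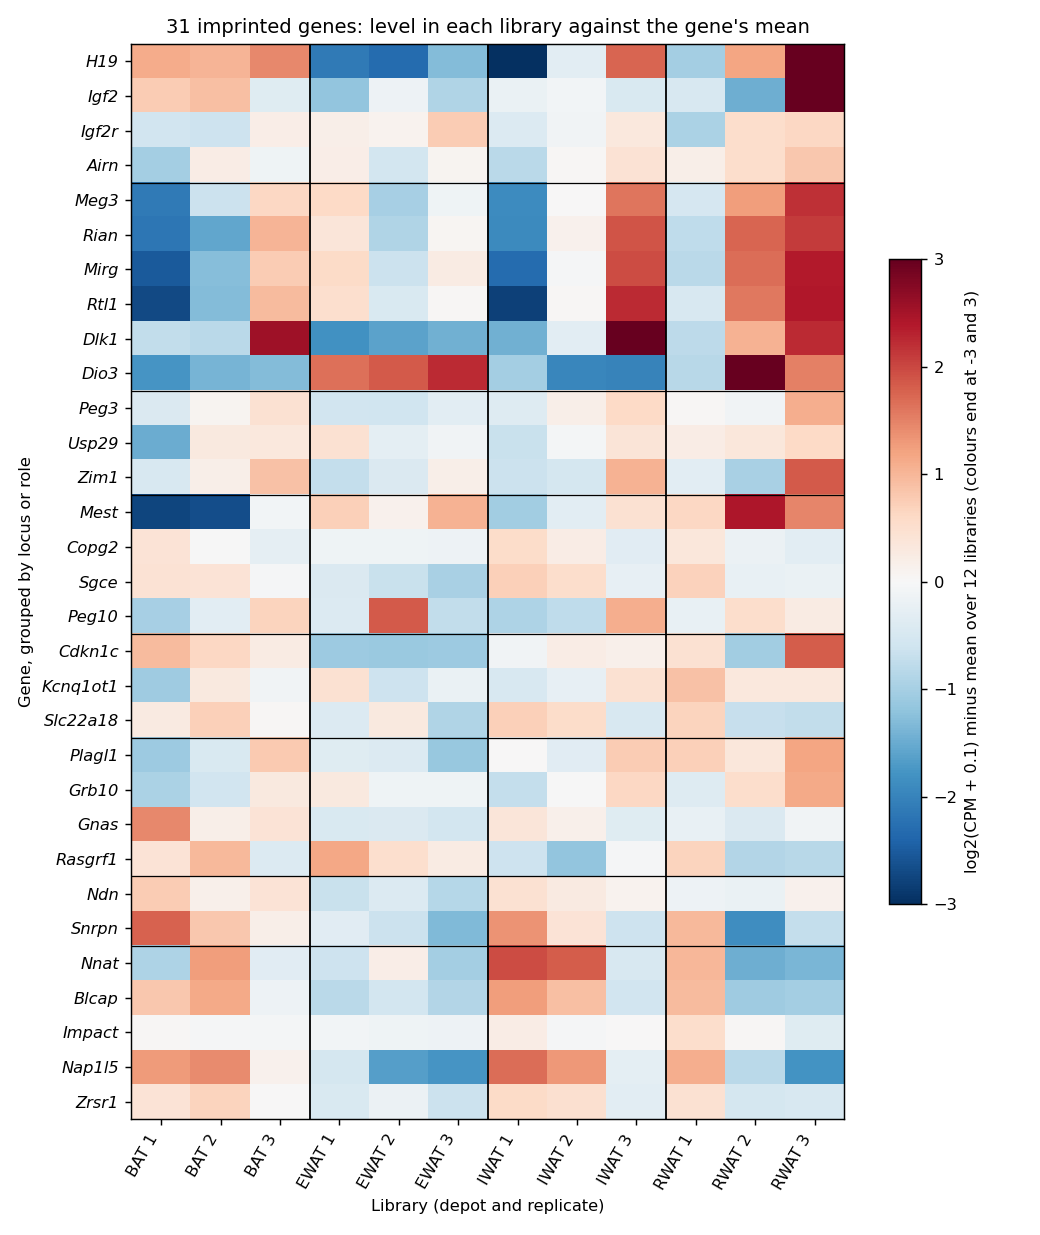
Levels of the 31 tested imprinted genes (rows, grouped by locus or role) in the 12 libraries (columns), as log2 CPM relative to the gene's mean over the libraries, red above and blue below it. Meg3, Rian, Mirg and Rtl1 are low in BAT replicate 1 and IWAT replicate 1 and high in RWAT replicate 3, while Nnat, Blcap and Nap1l5 are high in IWAT replicate 1 and low in RWAT replicate 3.

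The first test asked whether a gene differed anywhere among the 4 depots. With edgeR's quasi-likelihood F test and Benjamini-Hochberg adjustment over all 19154 genes tested, 0 of the 31 imprinted genes were called, where 0.512% of all genes were. At an unadjusted p under 0.05 there were 7 of 31, against 17.1% of all genes. DESeq2 called 6 of the 31, limma-voom 0 and limma-voom with sample quality weights 9. Of all 19154 genes they called 2151, 23 and 2443, in that order. The lowest adjusted p-values of the edgeR test were 0.0704 for Dio3 and 0.0771 for Ndn.

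Epididymal fat was then set against the averaged log2 level of the 3 other depots. Ndn fell in EWAT, Dio3 rose, and the other 29 genes did not pass the test. That is 1 lower, where 0.888% of all genes tested were lower, and 1 higher, where 2.61% were higher; 3.49% of all genes were called in either direction. DESeq2 called 1 higher and 6 lower, limma-voom 0 higher and 1 lower, and limma-voom with quality weights 2 higher and 10 lower. With a replicate block edgeR called 1 higher and 3 lower, and with the summed muscle markers as a covariate 0. Of all 19154 genes, DESeq2 called 1118 higher and 1044 lower, limma-voom 208 and 73, and limma-voom with quality weights 2795 and 2283. The replicate block gave 1198 higher and 623 lower over all genes, and the muscle covariate 95 and 24. The edgeR log2 fold change was below 0 for 26 of the 31 genes, where 48.1% of all genes were below 0. Its median was −0.68, against 0.03 over all genes, and came to −0.43 without IWAT replicate 3, −0.43 with the muscle covariate and −0.40 without TMM. The medians over all genes were then 0.09, 0.02 and 0.32, in the same order. At an unadjusted p under 0.05 there were 11 of 31 genes, against 22.5% of all genes.

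Ndn (ENSMUSG00000033585, chromosome 7, 62346569 to 62350262 on GRCm38) encodes necdin, a MAGE family protein that holds back cell proliferation and, in mice, adipocyte differentiation. It held 16.9, 20.1 and 14.8 CPM in the EWAT libraries, against 45.4, 29.8 and 35.7 CPM in BAT, 36.7, 32.6 and 28.9 CPM in IWAT and 24.1, 23.4 and 29.2 CPM in RWAT. Every EWAT library lay below each of the 9 others. Means were 17.3 ± 2.66 CPM in EWAT, 36.97 ± 7.903 CPM in BAT, 32.7 ± 3.896 CPM in IWAT and 25.6 ± 3.17 CPM in RWAT (SD, n = 3 each), and the log2 fold change was −0.86 (SE 0.17, adjusted p = 0.0258, edgeR). In the authors' TPM the depots overlapped, with 6.200, 8.01 and 7.07 TPM in EWAT and 7.92, 8.69 and 12.4 TPM in BAT. Ndn was no longer called without EWAT replicates 2 or 3 (adjusted p = 0.0932 and 0.1202, edgeR), with library sizes alone (log2 fold change −0.55, adjusted p = 0.116) or with the muscle markers as a covariate (adjusted p = 0.159).

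Dio3 (ENSMUSG00000075707, chromosome 12, 110279068 to 110281097) encodes the type 3 deiodinase, which inactivates thyroid hormone, and sits at the far end of the Dlk1-Dio3 domain. It held 1.79, 2.06 and 2.75 CPM in EWAT, against 0.0787, 0.131 and 0.147 CPM in BAT, 0.199, 0.0554 and 0.0522 CPM in IWAT and 0.238, 4.95 and 1.63 CPM in RWAT. Its counts were 34, 48 and 55 in EWAT, 1, 2 and 3 in BAT, 4, 1 and 1 in IWAT and 4, 110 and 30 in RWAT. EWAT lay above every BAT and IWAT library and overlapped RWAT, whose replicate 2 was the highest of all. The depot mean was slightly higher in RWAT (2.27 ± 2.42 CPM) than in EWAT (2.20 ± 0.494 CPM, SD, n = 3 each). The fitted log2 fold change was 2.79 (SE 0.63, adjusted p = 0.0387, edgeR), and it rests on very few counts in BAT and IWAT. It ran from 2.54 to 3.21 over the 21 alternatives, and the prior count that edgeR adds was not varied. The call was lost without EWAT replicates 2 or 3 (adjusted p = 0.177 and 0.141, edgeR), BAT replicates 1 or 2 (0.0556 and 0.0556) or IWAT replicate 2 (0.06297). It was also lost with limma-voom (adjusted p = 0.0902) and with the muscle covariate (adjusted p = 0.222).

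The promoters of these genes, from 250 bases before to 50 after the start of transcription, are shown because they are the pair that passed the test. They are RefSeq's, on the plus strand of GRCm38.p6.
Ndn, chr7:62348027-62348326: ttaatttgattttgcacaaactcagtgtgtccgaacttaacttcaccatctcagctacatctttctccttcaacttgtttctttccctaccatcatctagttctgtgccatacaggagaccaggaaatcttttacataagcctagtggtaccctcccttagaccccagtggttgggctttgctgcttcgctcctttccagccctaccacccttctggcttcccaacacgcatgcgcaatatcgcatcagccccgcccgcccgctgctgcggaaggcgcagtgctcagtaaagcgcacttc
Dio3, chr12:110278980-110279279: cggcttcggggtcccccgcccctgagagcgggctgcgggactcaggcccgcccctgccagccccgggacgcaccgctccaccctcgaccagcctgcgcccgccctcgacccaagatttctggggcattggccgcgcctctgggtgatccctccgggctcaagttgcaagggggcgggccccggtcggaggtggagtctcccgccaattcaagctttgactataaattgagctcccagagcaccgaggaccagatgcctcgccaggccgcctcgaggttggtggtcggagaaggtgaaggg
The Ndn window holds 11 CpG dinucleotides and the Dio3 window 25, against a median of 7 over all promoters of the table. Neither holds TGCCGC, the motif that the imprinting factor ZFP57 binds when methylated, on either strand. The motif is in 11.6% of all promoters and in 11 of the 40 windows listed for 27 of the imprinted genes, which describes the letters and not binding. Among the 11 are Mest windows starting at 30737800 and 30737803, which hold the same copies. The motif contains a CpG, and the 40 windows had a median of 13.5 CpG dinucleotides, against 7 over all promoters.

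Sgce and Cdkn1c also lay lower in every EWAT library than in the 9 others, without passing the test. With Ndn, that made 3 of 31 genes with EWAT below and no overlap, where 2.58% of all genes tested had such a pattern; 0 of the 31 had EWAT above with no overlap, where 3.57% of all genes did. In the authors' TPM all 3 genes overlapped the other depots, with a highest EWAT value of 20.9 TPM for Sgce and 5.39 TPM for Cdkn1c, against a lowest other value of 19.5 and 5.28 TPM. Cdkn1c (ENSMUSG00000037664, chromosome 7, 143458339 to 143461050) encodes the cyclin-dependent kinase inhibitor p57Kip2. It held 4.06, 4.03 and 4.05 CPM in EWAT, against 17.2, 13.5 and 10.4 CPM in BAT, 8.17, 10.2 and 9.71 CPM in IWAT and 12.1, 4.23 and 31.05 CPM in RWAT. Its EWAT libraries were nearly equal in CPM, and RWAT spread the most. The log2 fold change was −1.64 (SE 0.48, adjusted p = 0.0997, edgeR). It was called without RWAT replicates 2 or 3 (adjusted p = 0.0192 and 0.0401, edgeR), with DESeq2 (adjusted p = 0.007304) and with limma-voom and quality weights (adjusted p = 0.0485). With the muscle covariate its log2 fold change was −0.75 (adjusted p = 0.345, edgeR), and without EWAT replicate 2 the adjusted p was 0.358. Sgce, which encodes epsilon-sarcoglycan, ranged over 13.8 to 20.1 CPM in EWAT and 23.1 to 45.2 CPM elsewhere. It was called in EWAT by DESeq2, by limma-voom with quality weights, and by edgeR with the replicate block or without IWAT replicate 3.

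**Figure D2:**
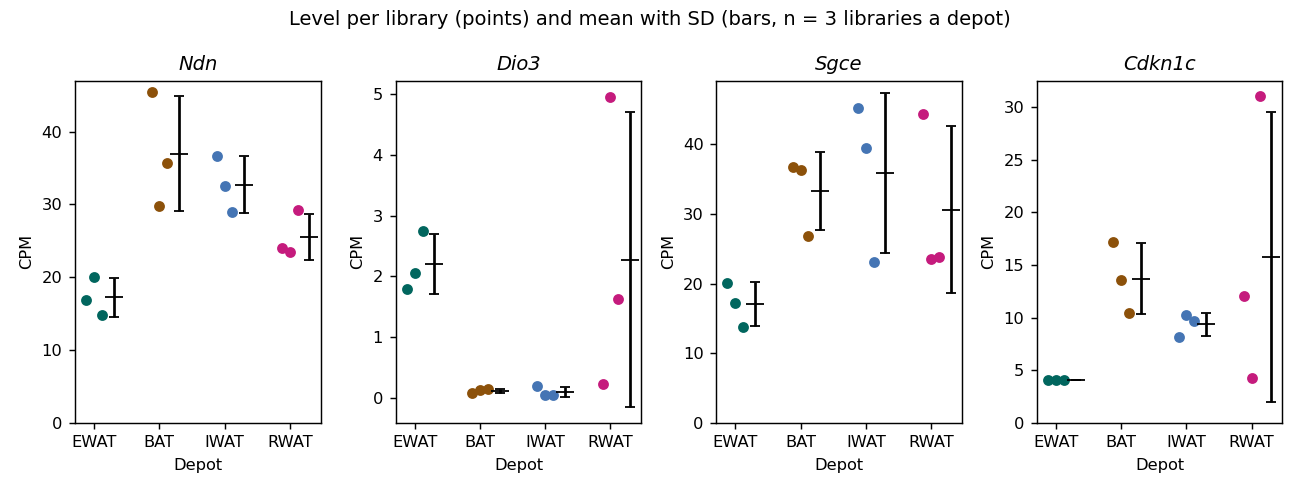
CPM of Ndn, Dio3, Sgce and Cdkn1c in each library (points), with the depot mean and SD (n = 3 libraries). In CPM the 3 EWAT libraries lie below all others for Ndn, Sgce and Cdkn1c, and for Dio3 they overlap RWAT, whose replicate 2 reaches 4.95 CPM.

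H19 (ENSMUSG00000000031, chromosome 7, 142575529 to 142578143), a lncRNA of the maternal copy, lies beside Igf2 (ENSMUSG00000048583, chromosome 7, 142650766 to 142666816), which encodes a fetal growth factor from the paternal copy. H19 held 10.1, 8.91 and 17.9 CPM in EWAT, against 95.7, 89.6 and 120.0 CPM in BAT, 5.48, 35.6 and 148 CPM in IWAT and 21.7, 99.7 and 516 CPM in RWAT. In CPM the BAT libraries lay close together, while H19 spanned 27.04-fold within IWAT and 23.7-fold within RWAT. In the authors' TPM, BAT held 33.1, 51.5 and 81.4 TPM, a span of 2.46-fold, against 2.33-fold within EWAT. H19 had a log2 fold change of −3.17 in EWAT (SE 1.10, adjusted p = 0.145, edgeR). DESeq2 called it (adjusted p = 0.00416), as did limma-voom with quality weights (adjusted p = 0.0273). With the muscle covariate, the log2 fold change of H19 was −1.76 (adjusted p = 0.423, edgeR). In BAT relative to white fat, its log2 fold change was 0.89 (SE 0.85, adjusted p = 0.531, edgeR), and −0.87 with the muscle covariate.

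Igf2 was low in 11 libraries and high in 1. It held 4.68, 5.15 and 3.92 CPM in IWAT, 2.32, 4.84 and 2.85 CPM in EWAT, 3.87, 1.89 and 68.5 CPM in RWAT and 9.21, 10.3 and 4.21 CPM in BAT. RWAT replicate 3 was also the highest for H19, Cdkn1c and Zim1, a zinc finger gene of the Peg3 domain with 13.3 CPM there and 1.802 to 7.57 CPM elsewhere. Beside its muscle markers, that library held 616 CPM summed over 10 markers of muscle stem cells and regenerating muscle, against 4.28 to 77.8 CPM in the others. Among these, the developmental myosin genes Myh3 and Myh8 were at 315 and 136 CPM in it, and at 31.5 and 25.7 CPM in BAT replicate 2, the next highest for both.

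Acta1 and these genes did not rank the libraries alike. In CPM, BAT replicate 1 had more Acta1 than RWAT replicate 3, with 95.7 CPM of H19 and 9.21 CPM of Igf2. In the authors' TPM this order turned, and RWAT replicate 3 was the highest library for Acta1 too (1992 TPM, against 1217 TPM in BAT replicate 1). IWAT replicate 3 held 148 CPM of H19 with 0.9401 CPM of Acta1, and RWAT replicate 2 held 99.7 CPM of H19 with 6.31 CPM of Acta1. In IWAT relative to EWAT and RWAT averaged, the log2 fold change of Igf2 was −0.99 (adjusted p = 0.654, edgeR) and 0.57 without RWAT replicate 3. The muscle covariate was 11.44 to 14.51 in the BAT libraries, 14.23 in RWAT replicate 3 and 6.071 to 7.395 in all others. It therefore cannot fully separate muscle RNA from depot or from RWAT replicate 3. The part of muscle RNA in the levels of H19 and Igf2 was not tested.

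**Figure D3:**
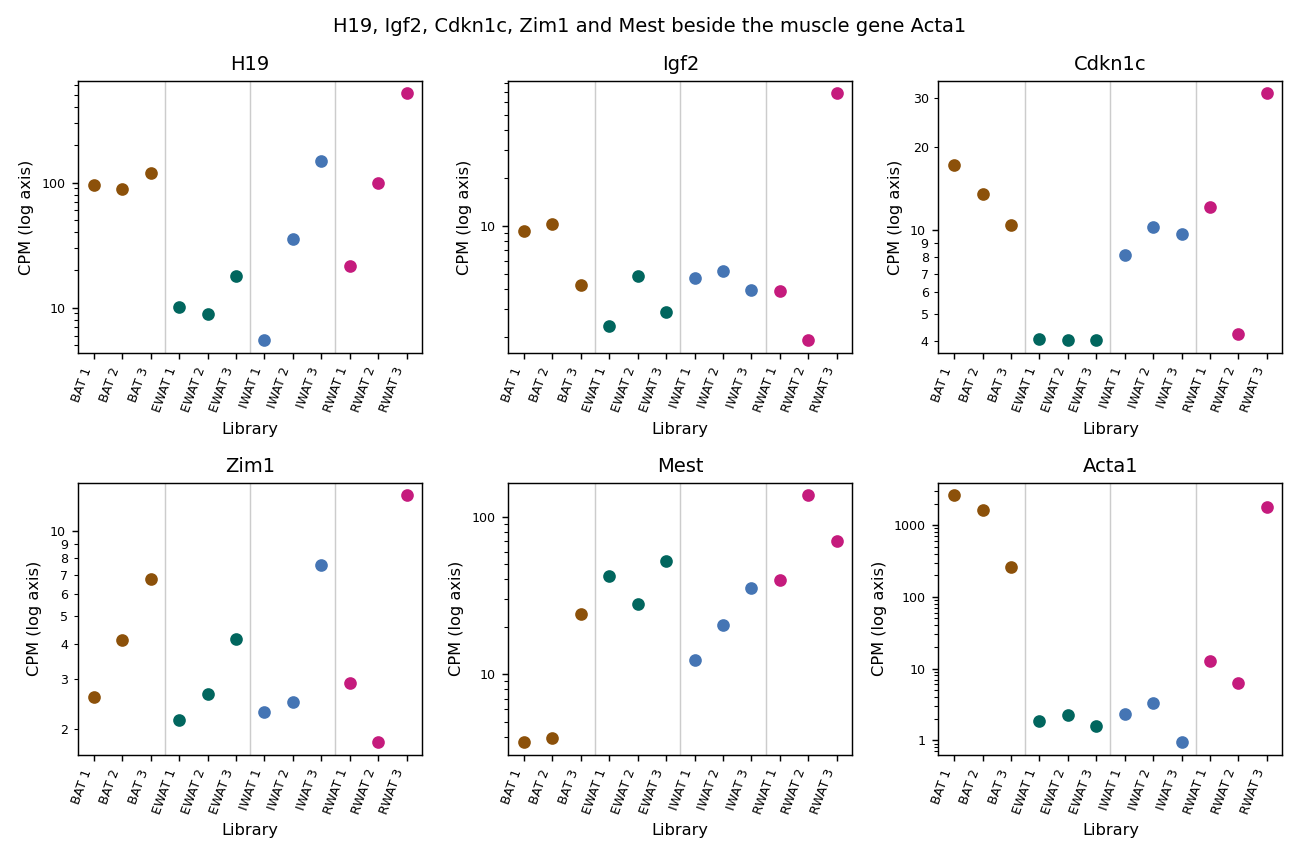
CPM on log axes of H19, Igf2, Mest and other genes with the skeletal muscle gene Acta1 in each of the 12 libraries, coloured by depot. RWAT replicate 3 is the highest for H19 (516 CPM) and Igf2 (68.5 CPM), while Acta1 is high in all 3 BAT libraries as well.

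Igf2r encodes the receptor that takes IGF2 to the lysosome, and Airn is the RNA that overlaps it on the opposite strand of chromosome 17. Igf2r ranged over 141 to 466 CPM and Airn over 3.39 to 12.1 CPM, and their depot means lay within 1.58 and 1.68 times. Neither was called in the 4 edgeR tests. Whether reads were assigned by strand is unknown here, so reads of Igf2r and Airn cannot be fully told apart, nor those of Mest and Copg2, Nnat and Blcap, or Kcnq1ot1 and Kcnq1.

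Mest (ENSMUSG00000051855, chromosome 6, 30723547 to 30748465) encodes a protein of the endoplasmic reticulum with a hydrolase fold. It held 3.700, 3.93 and 24.2 CPM in BAT, against 42.1, 28.1 and 52.4 CPM in EWAT, 12.3, 20.7 and 35.2 CPM in IWAT and 39.7, 137 and 70.3 CPM in RWAT. BAT replicates 1 and 2 were the lowest of all libraries, BAT replicate 3 lay within the IWAT range, and RWAT replicate 2 was the highest. The log2 fold change of BAT relative to white fat was −1.99 (SE 0.67, adjusted p = 0.186, edgeR), and DESeq2 called it (adjusted p = 0.02498). It was −3.40 without BAT replicate 3 (adjusted p = 0.0651, edgeR) and −1.22 with the muscle covariate (adjusted p = 0.842, edgeR). Its neighbour Copg2, a subunit of the COPI vesicle coat, ranged only over 40.4 to 75.4 CPM, and the ratio of Mest to Copg2 in TPM ran from 0.0679 in BAT replicate 1 to 4.201 in RWAT replicate 2.

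A Mest promoter on the plus strand is shown, from the same table, with TGCCGC or its reverse complement GCGGCA in capitals, as an example of a window with the motif. It holds 17 CpG dinucleotides and 2 copies of the motif.
Mest, chr6:30737803-30738102: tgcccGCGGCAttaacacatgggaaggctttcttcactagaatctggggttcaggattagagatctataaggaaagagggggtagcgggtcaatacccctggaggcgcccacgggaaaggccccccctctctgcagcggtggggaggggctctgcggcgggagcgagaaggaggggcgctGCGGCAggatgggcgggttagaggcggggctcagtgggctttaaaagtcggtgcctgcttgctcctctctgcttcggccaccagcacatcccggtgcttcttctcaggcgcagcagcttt

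In BAT relative to the averaged white depots, edgeR called 0 of the 31 imprinted genes, where it called 0.0992% of all genes (0.0888% higher and 0.0104% lower). At an unadjusted p under 0.05 there were 4 of 31, against 18.15% of all genes. DESeq2 called 3, namely Gnas and Ndn higher and Mest lower, and limma-voom called 0 with or without quality weights. Over all 19154 genes the counts were 950 with DESeq2, 3 with limma-voom and 73 with quality weights. The median log2 fold change was 0.04, against −0.07 over all genes. None of the 31 separated all BAT from all white libraries, as 0.475% of all genes did with BAT above and 0.757% with BAT below.

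In IWAT relative to EWAT and RWAT averaged, edgeR also called 0 of 31, where it called 0.141% of all genes (0.11% higher and 0.0313% lower). At an unadjusted p under 0.05 there were 6 of 31, against 11.5% of all genes. DESeq2 called 2, Ndn higher and Dio3 lower, limma-voom 0 and limma-voom with quality weights 14. Over all 19154 genes these tools called 364, 16 and 9124, in that order. Dio3 alone of the 31 had IWAT below with no overlap, as 1.67% of all genes did, and 0 had IWAT above, as 0.924% did. Its log2 fold change was −4.35 (SE 0.92, adjusted p = 0.149, edgeR), with adjusted p = 0.000646 in DESeq2.

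The Dlk1-Dio3 domain on chromosome 12 carries the maternal lncRNAs Meg3, Rian and Mirg and the paternal coding genes Dlk1, Rtl1 and Dio3. Meg3 (ENSMUSG00000021268, chromosome 12, 109541001 to 109571726) held 11.7, 32.8 and 79.3 CPM in BAT, 77.9, 25.8 and 46.9 CPM in EWAT, 13.9, 52.1 and 157 CPM in IWAT and 36.6, 123 and 234 CPM in RWAT. Every depot overlapped every other, and Meg3 spanned 11.3-fold within IWAT (adjusted p = 0.569 for any depot difference, edgeR). Rian ranged over 18.3 to 355 CPM, Mirg over 0.945 to 30.6 CPM and Rtl1, a retrotransposon-derived gene, over 0.648 to 27.7 CPM. For each of these 4 genes RWAT replicate 3, IWAT replicate 3 and RWAT replicate 2 were the highest, in that order, and BAT replicate 1 and IWAT replicate 1 the lowest. Grb10 and Airn, outside the domain, had the same highest and lowest libraries, with the highest in another order for Airn. The share of all genes with this pattern was not counted, so it cannot be read as a trait of the domain. The ratio of Rian to Meg3 in TPM spanned 2.62-fold, from 1.44 to 3.78, that of Mirg to Meg3 3.16-fold and that of Rtl1 to Meg3 4.14-fold. Meg3 itself ranged over 3.900 to 195 TPM.

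Dlk1 and Dio3, at the ends of the domain, had other patterns. Dlk1 (ENSMUSG00000040856, chromosome 12, 109452823 to 109463336) held 0.211, 0.257 and 0.3001 CPM in EWAT, against 0.551, 0.523 and 6.26 CPM in BAT, 0.299, 0.775 and 9.45 CPM in IWAT and 0.536, 2.16 and 5.002 CPM in RWAT. It was highest in IWAT replicate 3, BAT replicate 3 and RWAT replicate 3 and low in all EWAT libraries, whose counts were 4, 6 and 6. Counts were also few in BAT replicates 1 and 2 (7 and 8), IWAT replicates 1 and 2 (6 and 14) and RWAT replicate 1 (9). In the authors' TPM the lowest library was IWAT replicate 1, at 0.26 TPM. The log2 fold change in EWAT was −3.42 (SE 1.35, adjusted p = 0.181, edgeR), which DESeq2 called (adjusted p = 0.0162); with limma-voom and quality weights it was −2.16 (adjusted p = 0.0905). The 14 stromal progenitor markers summed to 23612 CPM in IWAT replicate 3, 26311 CPM in BAT replicate 3 and 34837 CPM in RWAT replicate 3, with 5206 to 20673 CPM in the other libraries. The collagen genes Col1a1 and Col3a1 made up most of these sums, with 8344 and 13467 CPM in IWAT replicate 3. Other markers were mixed. Lum, Ly6a and Icam1 were highest of their depot in IWAT replicate 3 and in BAT replicate 3. Pi16 (47.8 and 68.4 CPM) and Bmp7 were lowest of their depot in these libraries. Dcn and Wnt2 were highest of BAT in BAT replicate 3 and lowest of IWAT in IWAT replicate 3. Cd34 and Dpp4 were highest of BAT in BAT replicate 3, and Pdgfra was highest of IWAT in IWAT replicate 3. Col15a1 was lowest of BAT in BAT replicate 3, and F3 was at neither end. The part of these cells in the Dlk1 levels was not tested.

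**Figure D4:**
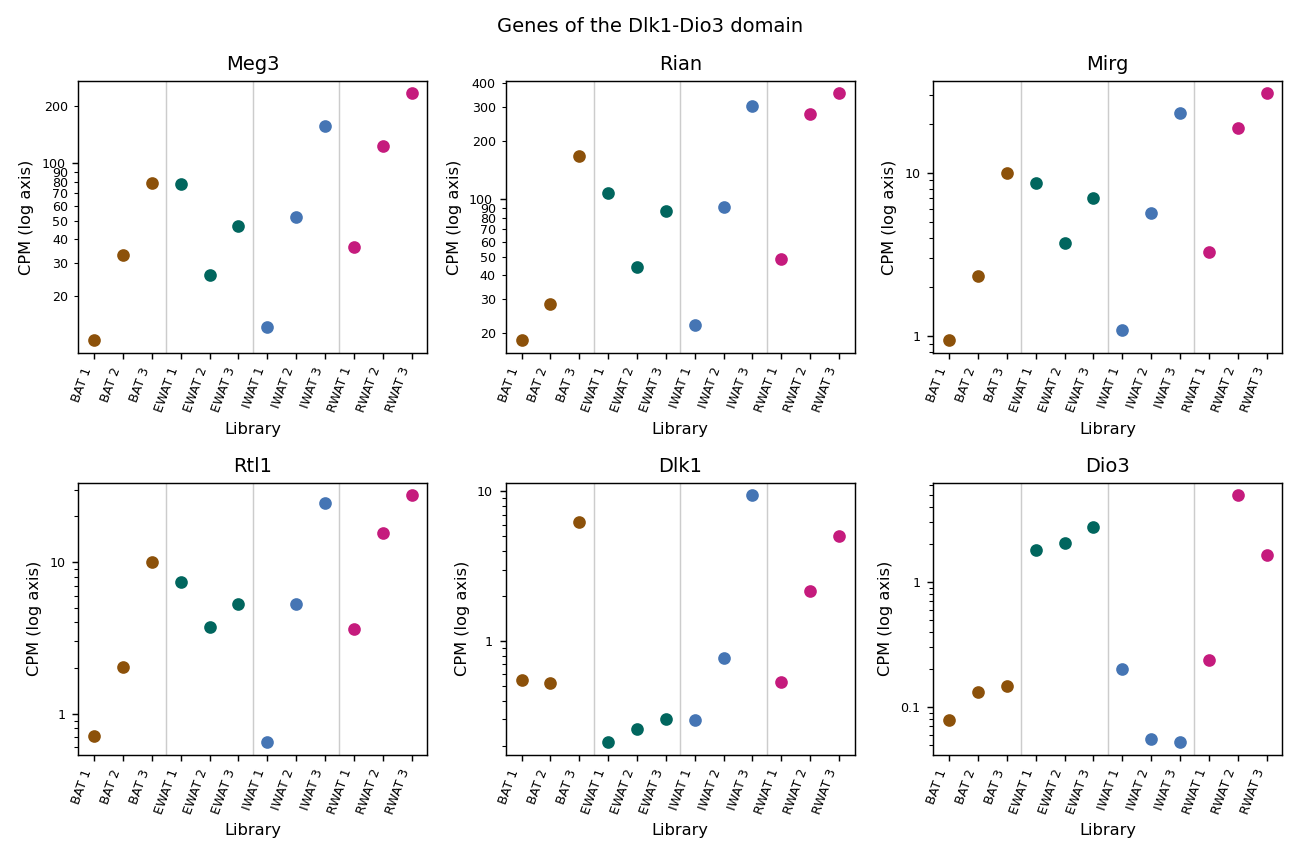
CPM on log axes of genes of the Dlk1-Dio3 domain in each of the 12 libraries, coloured by depot. Meg3, Rian, Mirg and Rtl1 have RWAT replicate 3 highest, Dlk1 is highest in IWAT replicate 3 (9.45 CPM), and Dio3 is high in EWAT and in RWAT replicates 2 and 3.

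Other genes had another order of libraries. Nnat encodes neuronatin, a small membrane protein of the endoplasmic reticulum, and lies within the bounds of Blcap on the opposite strand of chromosome 2. Nnat held 39.7, 181 and 59.9 CPM in BAT, 49.4, 86.4 and 37.3 CPM in EWAT, 294, 268 and 54.7 CPM in IWAT and 151, 27.6 and 29.04 CPM in RWAT, and all depots overlapped. It was high in IWAT replicates 1 and 2, BAT replicate 2 and RWAT replicate 1. Blcap, named for bladder cancer, ranged over 22.4 to 113 CPM, Nap1l5, of the nucleosome assembly protein family, over 0.489 to 6.43 CPM, and Snrpn, a spliceosomal protein gene of the Prader-Willi region, over 1.85 to 24.1 CPM. In CPM, all 4 and Sgce were highest in replicate 1 within IWAT and within RWAT, as were Copg2, Slc22a18, Impact and Zrsr1. The share of all genes with this pattern was not counted, so it cannot be read as a trait of these genes. In the authors' TPM, IWAT replicate 2 lay above replicate 1 for Nnat (345 and 301 TPM) and narrowly for Blcap, Nap1l5 and Sgce. Impact and Zrsr1 were not highest in IWAT replicate 1 in TPM either.

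The sum of 12 adipocyte markers was 25494, 25957 and 10914 CPM in BAT, 7817, 8106 and 5349.8 CPM in EWAT, 31909.8, 23426 and 8031 CPM in IWAT and 24946, 4708 and 2944 CPM in RWAT. It too was highest in replicate 1 within IWAT and within RWAT. BAT replicate 1 combined a high adipocyte sum with 39.7 CPM of Nnat. The part of adipocyte content in the levels of Nnat, Blcap, Nap1l5, Snrpn and Sgce was not tested. None of the 5 was called in the 4 edgeR tests of the main design. Nap1l5 had a log2 fold change of −2.04 in EWAT (SE 0.73, adjusted p = 0.155, edgeR). Like Sgce, it was called there by DESeq2, by limma-voom with quality weights and with the replicate block.

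**Figure D5:**
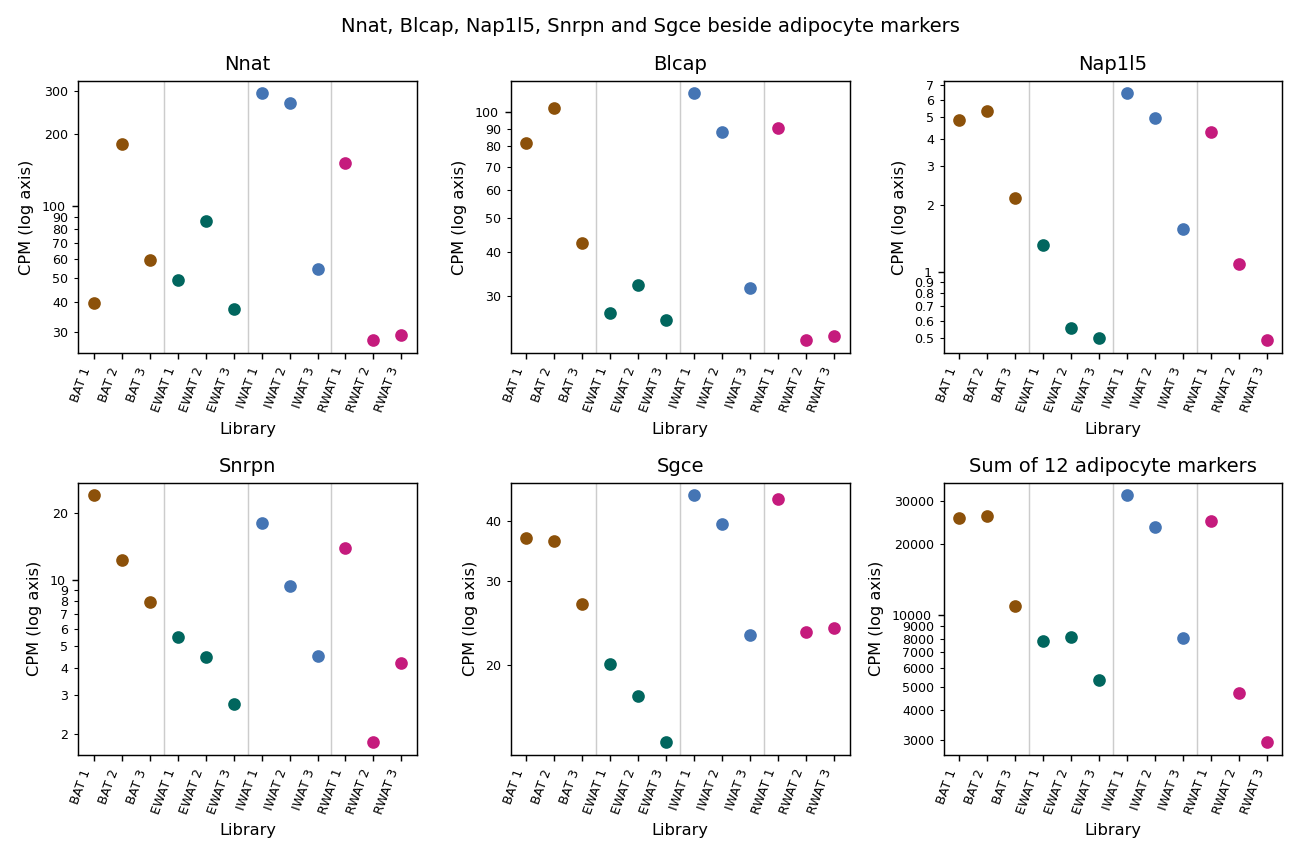
CPM on log axes of Nnat and other imprinted genes and the summed CPM of 12 adipocyte markers in each of the 12 libraries, coloured by depot. In IWAT and in RWAT, Nnat in CPM and the adipocyte sum (31909.8 and 24946 CPM) are highest in replicate 1.

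Sgce and Peg10, a retrotransposon-derived gene of placental growth, start 99 bases apart on opposite strands of chromosome 6, and Peg3 and Usp29 start 147 bases apart on chromosome 7. Peg10 held 12.3, 58.7 and 9.702 CPM in EWAT and 8.19 to 34.5 CPM in the other depots, so EWAT replicate 2 stood alone. The ratio of Sgce to Peg10 in TPM ran from 1.61 in EWAT replicate 2 to 29.7 in IWAT replicate 1. Peg3 (ENSMUSG00000002265, chromosome 7, 6703892 to 6730431), a zinc finger gene, held 36.04, 35.4 and 43.3 CPM in EWAT, against 39.7, 57.4 and 74.3 CPM in BAT, 41.4, 60.8 and 81.9 CPM in IWAT and 54.96, 50.5 and 115 CPM in RWAT. EWAT overlapped BAT and IWAT, and the log2 fold change was −0.74 (SE 0.31, adjusted p = 0.196, edgeR), −0.48 without TMM and −0.39 with the muscle covariate. Of the alternatives, only limma-voom with quality weights called Peg3 in EWAT (adjusted p = 0.0453). Usp29, of a deubiquitinase family, ranged over 1.89 to 8.32 CPM.

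Grb10 (ENSMUSG00000020176, chromosome 11, 11930508 to 12038683) encodes an adaptor that damps insulin and IGF1 receptor signalling. It held 76.2, 99.1 and 181 CPM in BAT, 181, 133 and 135 CPM in EWAT, 89.1, 146 and 227 CPM in IWAT and 112, 213 and 324 CPM in RWAT (adjusted p = 0.5797 for any depot difference, edgeR). All depots overlapped, and its 3 highest libraries were those of Meg3, in the same order. Gnas, whose main product carries adrenergic signals to adenylyl cyclase, held 1626, 677 and 798 CPM in BAT, against 409 to 771 CPM in white fat, and BAT overlapped IWAT. Plagl1, a zinc finger transcription factor, ranged over 13.95 to 70.03 CPM and Rasgrf1, a Ras exchange factor, over 0.277 to 1.79 CPM. Kcnq1ot1, the antisense RNA of the Cdkn1c domain, ranged over 118 to 456 CPM and Slc22a18, a transporter gene, over 0.9502 to 3.14 CPM. Zrsr1, related to splicing factors, ranged over 6.15 to 15.4 CPM, and Impact, a regulator of translation, over 36.1 to 67.3 CPM.

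Other imprinted genes and genes of the IGF axis were taken from lists. Of 37 tested genes of a list of 43 other imprinted genes, 2 rose in EWAT, 0 fell and 35 did not pass the test, with a median log2 fold change of −0.13; over all genes 2.61% rose and 0.888% fell. Gatm, which makes the creatine precursor guanidinoacetate, held 31.2, 111 and 54.9 CPM in EWAT, against 4.97 to 29.96 CPM in the other depots (log2 fold change 2.30, SE 0.45, adjusted p = 0.0245, edgeR). Sfmbt2, a Polycomb-related gene, held 2.95, 12.4 and 4.85 CPM in EWAT, against 0.315 to 2.05 CPM elsewhere (log2 fold change 2.55, SE 0.52, adjusted p = 0.0273, edgeR). Of 18 tested genes of the IGF axis, 1 rose in EWAT, beside the same 2.61% of all genes, and 17 did not pass, with a median of 0.02. It was Igfbp2, an IGF binding protein gene, at 1.32, 3.13 and 0.6502 CPM in EWAT and 0 to 0.393 CPM elsewhere (adjusted p = 0.0326, edgeR). In the 3 other edgeR tests none of either list was called.

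Markers of other cells also differed in EWAT, where edgeR called 2.61% of all genes tested higher and 0.888% lower. All 10 mesothelial markers were higher by the edgeR test, and their sum was 300.1, 173 and 128 CPM in EWAT, against 1.99 to 7.65 CPM in BAT and IWAT and 80.8, 76.3 and 358 CPM in RWAT. Of 14 stromal progenitor markers, 2 were lower in EWAT, Pi16 and Ly6a. Of 11 brown adipocyte markers, 4 were lower in EWAT (Ucp1, Cox8b, Ppargc1a and Lhx8), and of 7 endothelial markers 1 was, Tek. Macrophage markers summed to 5879.9, 7938 and 7202 CPM in EWAT, against 1151 to 5858 CPM elsewhere, but 0 of their 13 rows were called and 2 had an unadjusted p under 0.05. The median log2 fold change of the 13 macrophage rows was 1.07. Lyz2 was the largest part of that sum, with 2758, 4093 and 3307 CPM in EWAT. Mrc1 and Cd163 lay below the median, with log2 fold changes of 0.03 and −0.47. The part of these cell types in the EWAT differences of Ndn and Dio3 was not tested.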

How the data were processed

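The authors deposited RSEM output for each library: an expected count for every gene, not normalised, the TPM, and other columns that the headers name as posterior means and standard deviations. Per the submitters' processing notes, Trimmomatic 0.36, RSEM 1.3.0 and DESeq2 1.10.1 were used with genome build GRCm38.p4. Libraries were depleted of ribosomal RNA and read single-end for 75 bases, per the labels' protocols. The annotation and strand setting were not given in the sources used here. Coordinates are from GENCODE M21 (GRCm38), which matched 47224 of 47729 gene identifiers.

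Here, expected counts were rounded to whole numbers, filtered with filterByExpr and scaled by TMM. A single model of all 12 libraries, with a coefficient for each depot, was tested with edgeR 4.0.16 (R 4.3.3), and a gene was called at an adjusted p under 0.05 over the 19154 genes tested. DESeq2 1.42.0 and limma 3.58.1 served as alternatives. The muscle covariate is the log2 summed CPM of 18 muscle markers, which moves with depot. The test was tried on simulated counts. The members, the lists and the EWAT comparison were chosen with earlier results of these data known. Values in every library were planned for called genes and for H19, Mest, Igf2, Meg3, Dlk1, Cdkn1c, Grb10 and Peg3; those of Nnat, Gnas and Peg10 and the fold change of Nap1l5 were added after their values were seen. No libraries of a depot held identical values or agreed within sampling noise. A floor of 3 counts covers counting error only.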

Additional observations from a re-analysis of the deposited data

How the results depend on the processing

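The number of calls depended on the tool. DESeq2 called 6 imprinted genes for any depot difference, 3 for BAT, 7 for EWAT and 2 for IWAT, and 2151, 950, 2162 and 364 genes in all, in the same order of comparisons. Limma-voom called 1 in EWAT and 23, 3, 281 and 16 genes in all. With sample quality weights it called 9 for any difference, 12 for EWAT and 14 for IWAT, and 2443, 73, 5078 and 9124 genes in all. Without TMM, 1 imprinted gene (Dio3) was called in EWAT and 11 genes in all in BAT; the EWAT split became 600 higher and 81 lower, against 499 and 170, while the median of all genes moved to 0.32 (EWAT), −0.46 (BAT) and −0.29 (IWAT). Without the low-count filter, 1 imprinted gene (Dio3) was called for any difference, and 436, 47 and 1760 genes in all for any difference, BAT and EWAT. The filter of 1 CPM in 3 libraries left 439 genes in EWAT. With the muscle covariate, 0 imprinted genes were called in EWAT, 119 genes in all there and 6 in BAT.

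The shared replicate numbers were not taken as pairs, because depot is the only factor the labels give. Libraries of the same number were still partly alike. Of 18 same-numbered pairs, 10 had correlated deviations over 0.1, and 8 of 12 libraries correlated best with their own number. The median correlation was 0.125 for same-numbered pairs, with a range of −0.466 to 0.778, and −0.102 for different numbers. The main model leaves this structure out. With the replicate block, 4 imprinted genes were called in EWAT (Sgce, Ndn, Nap1l5 and Dio3), and 171, 649 and 1821 genes in all for any difference, BAT and EWAT. The block also gave Meg3 0.18 and Grb10 0.10 in EWAT and H19 −0.081 in IWAT as log2 fold changes.

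Leaving out each library in turn gave 0 to 1 imprinted genes for any difference, 0 for BAT, 0 to 3 for EWAT and 0 to 1 for IWAT, and 11 to 1054, 1 to 263, 56 to 1718 and 6 to 139 genes in all. The 0 in EWAT came without EWAT replicates 2 or 3.

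Signs turned for some genes that were never called there. With the muscle covariate, BAT log2 fold changes were −0.87 for H19, −2.98 for Igf2, −0.68 for Cdkn1c and −0.49 for Peg3, EWAT ones 0.93 for Igf2 and 0.16 for Grb10, and IWAT ones 0.80 for Igf2 and 0.13 for Meg3. Without TMM they were −0.35 for Igf2 and −0.34 for Peg3 in BAT, 0.15 for Grb10 in EWAT and −0.011 for Cdkn1c in IWAT. Limma-voom gave 0.024 for Grb10 in EWAT and −0.19 for H19 in IWAT, and with quality weights −0.59 for H19 and −0.14 for Dlk1 in IWAT. Leaving out a library gave ranges across 0 in BAT of −0.11 to 1.16 for Igf2, −1.21 to 1.80 for Dlk1 and −0.12 to 0.24 for Peg3, and in EWAT of −0.25 to 0.050 for Grb10. In IWAT the ranges were −1.31 to 1.21 for H19, −1.26 to 0.57 for Igf2, −1.30 to 0.37 for Meg3, −0.60 to 2.64 for Dlk1, −0.61 to 0.055 for Grb10 and −0.047 to 0.46 for Peg3. The cause was not tested. Of 839 values of single genes under the alternatives, 761 kept direction and side of the threshold and 40 changed sign. DESeq2 gave no adjusted p for Igf2 for any depot difference. Genes with few counts, such as Dio3 and Dlk1, are limited by depth.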
